A study of Rattus norvegicus with 6 samples.

Results

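Red blood cell genes were followed in spinal cord RNA from rats with neuropathic pain (NP) and from sham rats. The 7 genes were Hbb (beta globin), Ahsp, Alas2, Slc4a1, Epb42, Rhag and Klf1, found by their symbols among the 22050 genes of the expression table. All 7 had passed the filter on low counts, as had 14426 genes in all. They were selected on their measured levels in these same 6 libraries. Their levels and the group difference are therefore given as a description, with no test read as support.

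Bulk RNA-seq had been made from spinal cord tissue of rats with spared nerve injury (SNI-NP, 3 libraries) and rats with sham surgery (Sham, 3 libraries), all young adult male Sprague-Dawley rats. In SNI, the tibial and common peroneal branches of the sciatic nerve are cut and the sural branch is left intact, which leaves the paw hypersensitive. No other treatment was named for these libraries. How the cord was collected for RNA, including the spinal level, the side, the time after surgery and any perfusion, was not given in the sources used here, and nothing said whether each library came from 1 rat, so replicate spread may in part be technical.

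Library totals ran from 16670760 to 18151156 counts. Neuronal and glial markers were abundant in all 6 libraries. The library SNI-NP 1 also stood apart in genes that are not erythroid. Its summed level of 10 neuron markers was 1922 CPM (counts scaled to the library total), against 3586 to 5220 CPM in the other libraries. Its summed level of 8 markers of sensory ganglion neurons was 77.5 CPM, against 370.0 to 1176 CPM. The fitted group differences below are therefore also given without this library.

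Mature red cells carry oxygen on haemoglobin, a tetramer of alpha and beta globin chains that each hold a haem group. They develop from erythroid precursors in bone marrow, where the factors Gata1 and Klf1 switch on the genes for globin chains, haem synthesis and the red cell membrane. The youngest red cells to reach the blood, the reticulocytes, have lost the nucleus but still hold much globin mRNA, so globin transcripts are found in most tissues that contain blood. Spinal cord cells are not an erythroid tissue.

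Gata1 binds DNA at GATA motifs, Klf1 binds CACC boxes, and many globin-type promoters also hold a CCAAT box. To show the DNA in front of the genes that varied together, the 120 bases before the annotated start were read from RefSeq on build GRCr8 for the members that had an entry starting at the first base of the gene. Capitals mark what was searched for on either strand: the GATA forms GATAA as well as GATAG, the box CACCC, and the box CCAAT. On the opposite strand GATAA reads as TTATC, whereas CACCC there reads as GGGTG and CCAAT as ATTGG. In the beta globin window the opposite-strand and the given-strand CCAAT lie side by side.
Hbb, chr1:167663722-167663841, minus strand: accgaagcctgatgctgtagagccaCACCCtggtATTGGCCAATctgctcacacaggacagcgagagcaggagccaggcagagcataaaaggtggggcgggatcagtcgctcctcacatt
Klf1, chr19:40158652-40158771, minus strand: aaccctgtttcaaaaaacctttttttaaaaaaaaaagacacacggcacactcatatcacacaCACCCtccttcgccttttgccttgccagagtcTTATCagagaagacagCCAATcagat
Rhag, chr9:27594391-27594510, minus strand: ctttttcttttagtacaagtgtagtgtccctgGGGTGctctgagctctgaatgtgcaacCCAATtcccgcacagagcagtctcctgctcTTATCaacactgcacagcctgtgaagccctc
Epb42, chr3:128451684-128451803, minus strand: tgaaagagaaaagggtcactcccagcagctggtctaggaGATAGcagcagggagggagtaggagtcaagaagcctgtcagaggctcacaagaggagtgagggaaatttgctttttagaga

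Beta globin, Klf1 and Rhag each held CACCC and CCAAT. Klf1 and Rhag also held GATAA, 26 and 31 bases before the start, both on the opposite strand. Epb42 held GATAG 81 bases before its start and none of the other letters. Over 33469 promoter windows of the same length, 29.5% held CACCC, 19.9% held CCAAT, 11.2% held GATAA and 9.57% held GATAG, so these short runs are common and a match is only a description. The RefSeq window of Alas2 starts 4800 bases inside the gene and was not printed, and Ahsp and Slc4a1 had no entry.

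The transcripts differed widely in abundance. On the per-length scale of FPKM (fragments scaled to gene length and library size), the mean level over the 6 libraries was 1030 for Hbb, 13.0 for Ahsp, 10.3 for Slc4a1, 6.44 for Alas2, 2.11 for Klf1, 1.92 for Epb42 and 0.74 for Rhag. Below Hbb, which lay far above the others in every library, each pair of neighbours in this order had overlapping ranges over the libraries. All values below are CPM, scaled by the TMM method, and compare 1 gene between libraries.

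Hbb (ENSRNOG00000058105) encodes the beta chain of adult haemoglobin. Its level was 465, 299.6 and 643 CPM in Sham 1, 2 and 3 and 1365, 739 and 610.1 CPM in SNI-NP 1, 2 and 3. SNI-NP 1 was the highest library at 1.85 times the second, and SNI-NP 3 lay below Sham 3, so the groups overlapped. The group means were 469.5 ± 172 CPM in Sham and 904.7 ± 404 CPM in SNI-NP (SD, n = 3 each). As these are libraries of bulk tissue, more red cells and more RNA per red cell cannot be told apart, and other sources of the difference were not tested.

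Ahsp (ENSRNOG00000020165) encodes the chaperone that holds free alpha chains until they pair with beta chains. It was measured at 3.002, 2.08 and 7.63 CPM in the Sham libraries and at 17.9, 5.66 and 7.77 CPM in the SNI-NP libraries. SNI-NP 1 stood 2.30 times above the second library, while SNI-NP 2 lay below Sham 3 and SNI-NP 3 was level with it. The Sham libraries alone spanned 3.66-fold, the widest Sham range among the 7 genes.

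Alas2 (ENSRNOG00000000167) encodes the erythroid form of the first enzyme of haem synthesis. Its level was 6.24, 5.24 and 10.2 CPM in Sham and 22.9, 12.4 and 11.2 CPM in SNI-NP. The groups did not overlap, although SNI-NP 3 exceeded Sham 3 by little. SNI-NP 1 held 1.85 times the second library, the same factor as for Hbb.

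Slc4a1 (ENSRNOG00000020951) encodes band 3, the chloride-bicarbonate exchanger and main anchor of the red cell membrane to its skeleton. It was present at 19.5, 12.1 and 30.1 CPM in Sham and at 128, 40.0 and 53.3 CPM in SNI-NP. All 3 SNI-NP libraries lay above all 3 Sham libraries, and SNI-NP 1 lay 2.40 times above the next. The means were 20.5 ± 9.07 CPM in Sham and 73.8 ± 47.4 CPM in SNI-NP (SD, n = 3 each).

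Epb42 (ENSRNOG00000011649) encodes protein 4.2, which ties band 3 to ankyrin. Its level was 4.98, 7.10 and 5.995 CPM in Sham and 12.4, 7.22 and 8.58 CPM in SNI-NP. This was the flattest of the 7 genes, with 2.49-fold between its extreme libraries. The groups did not overlap, but SNI-NP 2 exceeded Sham 2 by little.

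Rhag (ENSRNOG00000050121) encodes the Rh-associated glycoprotein, which carries the Rh blood group proteins to the membrane. It was the rarest of the 7, with 13, 8 and 12 counts in Sham and 93, 9 and 33 counts in SNI-NP. The exact Poisson 95% interval of the count was 75.1 to 113.9 in SNI-NP 1 and 22.7 to 46.3 in SNI-NP 3, both above the counts of the Sham libraries. In SNI-NP 2 it was 4.12 to 17.1, which spans all 3 Sham counts. These intervals cover counting error only. In CPM, SNI-NP 1 at 5.35 was 2.80 times the second library and 11.9 times the lowest.

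Klf1 (ENSRNOG00000003443) encodes the zinc finger factor that switches on beta globin and many other erythroid genes. Its level was 2.22, 1.58 and 2.39 CPM in Sham and 7.48, 2.55 and 3.19 CPM in SNI-NP. SNI-NP 1 again stood alone, at 2.35 times the next library, whereas SNI-NP 2 and 3 lay just above the Sham range. Read counts were low here, from 28 in Sham 2 to 130 in SNI-NP 1.

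**Figure D1:**
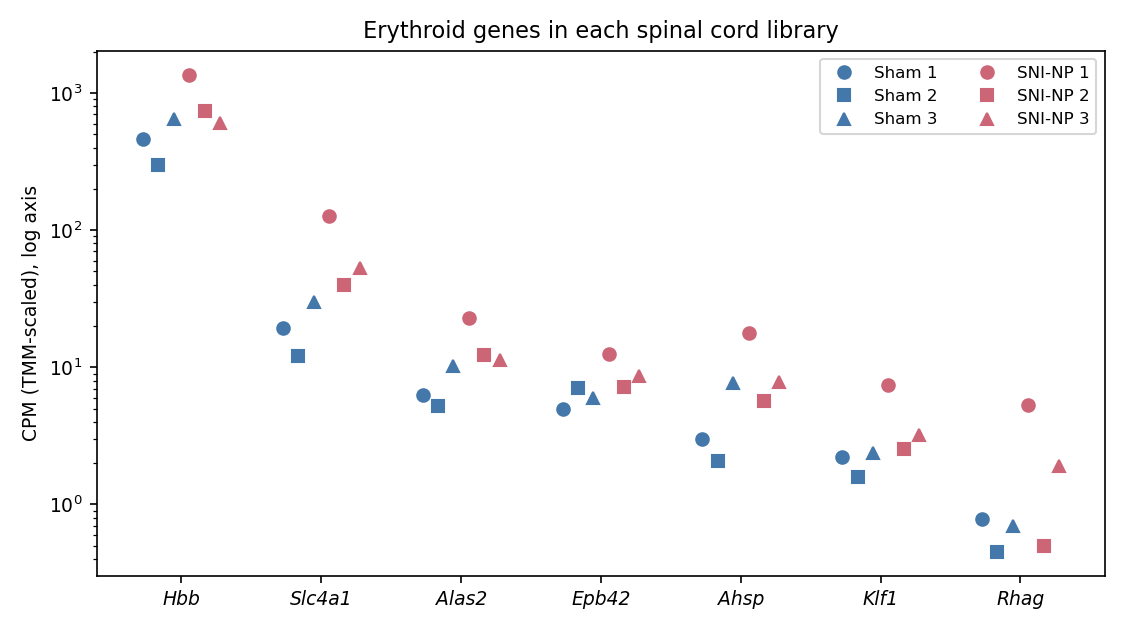
Level of each gene in each library, in TMM-scaled CPM on a log axis, with Sham in blue, SNI-NP in red and the replicate number as the marker shape. SNI-NP 1 (red circle) is the highest point for all 7 genes, and Sham 2 (blue square) is the lowest for 6 of them.

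Thus SNI-NP 1 was the highest library for 7 of 7 genes, where 20.4% of all genes tested were highest in that library. Its level was over 2-fold the second library for 4 of the 7 (Slc4a1, Ahsp, Klf1 and Rhag), against 27 of 14426 genes tested (0.187%), and over 2-fold the median of the 6 libraries for 6 of the 7 (all but Epb42), against 0.915%. Since the genes were selected on these levels, nothing is read from those counts. The second library was SNI-NP 3 for 5 genes and SNI-NP 2 for Alas2 and Hbb. At the other end, Sham 2 was lowest for 6 genes and Sham 1 for Epb42.

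The common profile was obtained by centring log2(CPM + 0.1) of each gene on its mean over the 6 libraries and averaging the 7 genes. It ran from -0.99 in Sham 2 through -0.60 in Sham 1, -0.12 in Sham 3, -0.06 in SNI-NP 2 and 0.33 in SNI-NP 3 to 1.44 in SNI-NP 1. Sham 3 and SNI-NP 2 thus held nearly the same mean level. Klf1 followed the profile most closely, with a root mean square (RMS) difference of 0.16, then Alas2 at 0.21 and Hbb at 0.25. Epb42 at 0.48 and Rhag at 0.55 departed most, Epb42 through its high value in Sham 2 and its low value of 0.74 in SNI-NP 1, and Rhag through its low value in SNI-NP 2 and its high value in SNI-NP 1.

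**Figure D2:**
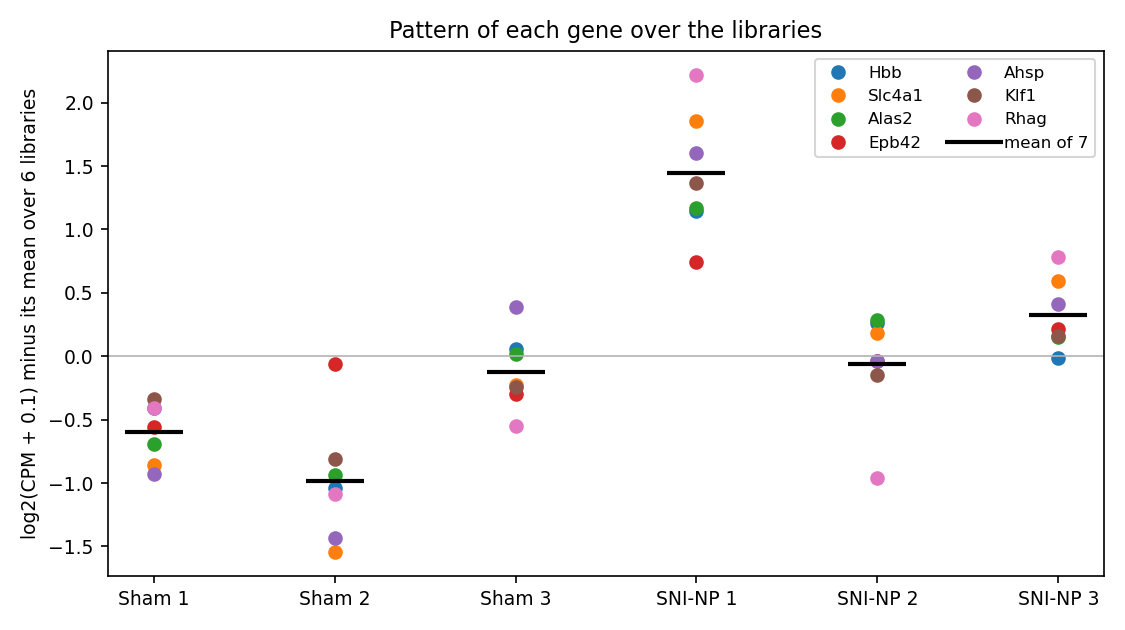
Pattern of each gene over the libraries, as log2(CPM + 0.1) minus the mean of that gene over the 6 libraries, with 1 coloured point per gene and a black bar for the mean of the 7 genes. The bar stands at 1.44 in SNI-NP 1 and between -0.99 and 0.33 in the other 5 libraries.

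Between the groups, all 7 genes had a positive fitted log2 fold change, SNI-NP minus Sham, as did 7341 of 14426 genes tested. Among the 7, the membrane genes Rhag and Slc4a1 had the highest, at 1.997 (SE 0.79) and 1.84 (SE 0.49). Ahsp, Alas2 and Klf1 lay between, at 1.30 (SE 0.59), 1.10 (SE 0.36) and 1.09 (SE 0.45), and Hbb and Epb42 had 0.95 (SE 0.37) and 0.64 (SE 0.25). The median over the 7 was 1.10, where the median over all genes tested was 0.01. No gene passed the adjusted threshold of 0.05 in the edgeR quasi-likelihood test, in which 0 of 14426 genes passed (0%). The adjusted p of the 7 ran from 0.351 for Slc4a1 to 0.477 for Ahsp.

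At an unadjusted p under 0.05 the fit counted 1565 genes over the table. Among the 7, 6 were higher at that level (all but Ahsp), where 4.91% of genes tested were, and 4 were also over 2-fold higher (Alas2, Slc4a1, Klf1 and Rhag), where 0.742% were. No member was among the 1.53% that were over 2-fold lower. DESeq2 called 1 of the 7 higher, Slc4a1 with an adjusted p of 0.00606, as it did 0.409% of all genes tested. Without a test, all 3 SNI-NP libraries lay above all 3 Sham libraries for Alas2, Slc4a1, Klf1 and Epb42, as they did for 10.4% of genes tested.

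Much of the group difference came from SNI-NP 1. Set against the mean of the other SNI-NP libraries, that library held 1.57 times as much Epb42, 1.94 times as much Alas2, 2.02 times as much Hbb, 2.60 times as much Klf1, 2.66 times as much Ahsp, 2.74 times as much Slc4a1 and 4.43 times as much Rhag. Without it, the fitted log2 fold change was 1.18 (SE 0.34) for Slc4a1, 0.90 (SE 0.64) for Rhag, 0.71 (SE 0.30) for Alas2, 0.66 (SE 0.52) for Ahsp, 0.52 (SE 0.29) for Hbb, 0.48 (SE 0.32) for Klf1 and 0.39 (SE 0.23) for Epb42. All 7 thus kept their sign, and the median was 0.66. None passed the adjusted threshold in the edgeR test, where 222 of the 14577 genes tested in that fit did (1.52%), and the lowest adjusted p of the 7 was 0.173 for Slc4a1. As SNI-NP 1 was the highest library for all 7, leaving it out could not change which of them separated the groups. SNI-NP 2 and 3 thus lay above all Sham libraries for the same 4 genes, where 15.5% of genes tested did so.

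**Figure D3:**
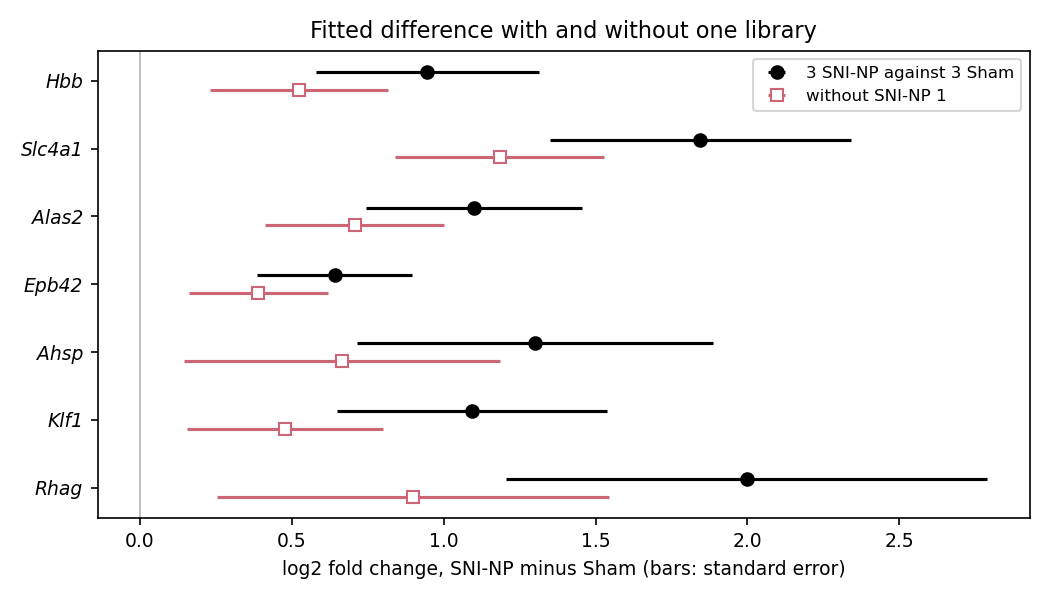
Fitted log2 fold change of each gene, SNI-NP minus Sham, from edgeR with 3 libraries a group (black circles) and without SNI-NP 1 (red open squares), with bars of 1 standard error. Each estimate lies above 0, and each is smaller without SNI-NP 1, as for Rhag at 1.997 and 0.90.

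Relations between the genes within a library were also examined, by dividing each count by the Hbb count of the same library. Alas2 held nearly the same ratio throughout, from 13.4 to 18.4 counts per 1000 Hbb counts, while Hbb itself spanned 4.56-fold. Klf1 spanned 3.46 to 5.48 per 1000, and its highest value, in SNI-NP 1, was close to the 5.27 of Sham 2. For Alas2, then, the excess of SNI-NP 1 was about that of beta globin.

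Slc4a1 departed from this. Its ratio was 41.8, 40.2 and 46.8 per 1000 Hbb counts in Sham and 93.8, 54.2 and 87.3 in SNI-NP, so that the groups did not overlap. How many genes of the whole table separate in this ratio was not computed, and the members were selected on these levels. Nothing is therefore read from that separation. The divisor is also Hbb alone, whose own level is uncertain for the reason given below. The group means were 42.9 ± 3.41 and 78.4 ± 21.2 (SD, n = 3 each), and the smallest p that an exact two-sided permutation test of 3 against 3 can give is 0.1. Rhag was higher per Hbb in SNI-NP 1 and 3, at 3.92 and 3.14 per 1000, but lowest in SNI-NP 2 at 0.676, with Sham at 1.09 to 1.68. Ahsp reached 13.1 and 12.7 per 1000 in SNI-NP 1 and 3 and 11.9 in Sham 3, against 6.45 to 7.66 in the others. Epb42 was highest in Sham 2 at 23.7 and between 9.11 and 14.1 elsewhere.

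**Figure D4:**
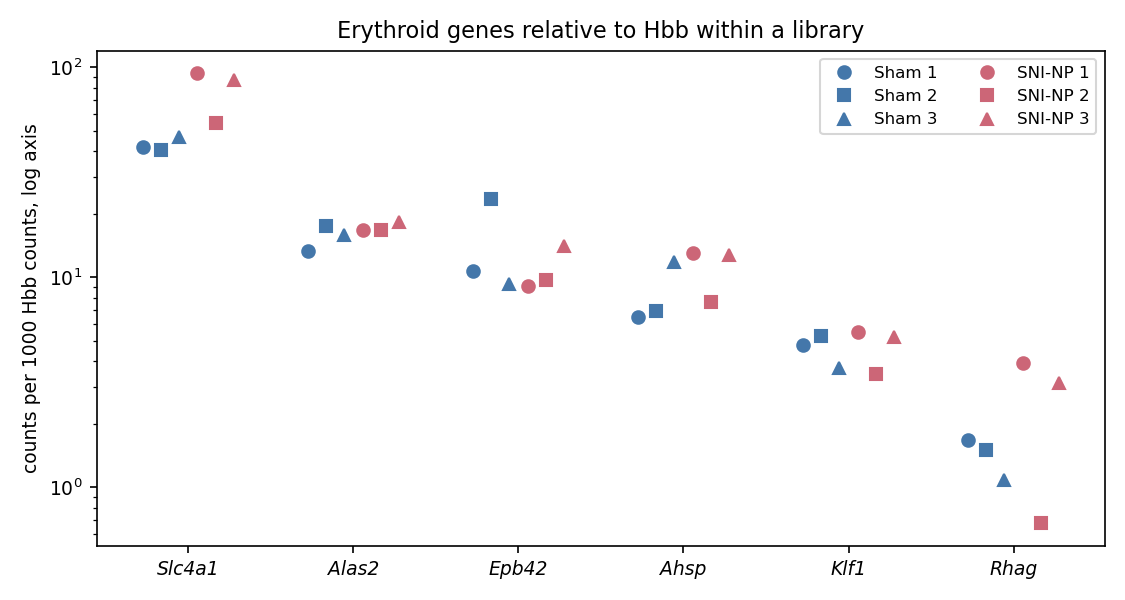
Counts of 6 genes per 1000 counts of Hbb in the same library, on a log axis, with Sham in blue, SNI-NP in red and the replicate number as the marker shape. Alas2 stays within 13.4 to 18.4, whereas Slc4a1 is at 40.2 to 46.8 in Sham and 54.2 to 93.8 in SNI-NP.

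Hbb is 1 of several near-identical adult globin genes, and its deposited counts were not whole in any of the 6 libraries. The summed counts of the beta genes Hbb, Hbb-bs and LOC100134871 (beta globin minor gene) were whole within 0.01 in 6 of 6 libraries, as were those of the alpha genes Hba-a1, Hba-a2 and Hba-a3. Reads thus appear to have been divided among the copies, so the level of any single copy is uncertain and the sums are the safer measure. Hbb took 51.8% to 57.8% of the beta sum. That sum was 808, 532 and 1241 CPM in Sham and 2442, 1286 and 1056 CPM in SNI-NP, with the libraries in the same order as for Hbb alone.

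The alpha and beta chains kept close pace. The ratio of alpha to beta counts was 1.37, 1.23 and 1.35 in Sham and 1.46, 1.43 and 1.36 in SNI-NP. Over the same libraries the globin share of all counts went from 0.123% in Sham 2 to 0.576% in SNI-NP 1, with 0.192% and 0.293% in Sham 1 and 3 and 0.315% and 0.247% in SNI-NP 2 and 3. The embryonic genes Hbz, Hbe2 and Hbg1 had no count in any library, and Hbe1 had 1 count in SNI-NP 2. The globin signal of the cord was thus almost wholly that of adult genes.

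A further 88 symbols of erythroid genes were listed, of which 74 were in the table and 66 were tested. None passed the adjusted threshold in edgeR, and the smallest adjusted p was 0.336. At an unadjusted p under 0.05 with over 2-fold difference, 7 were higher (Hba-a1, Rhd, Ermap, Gata1, Gfi1b, Hemgn and Car1) and 1 was lower (Rfesd). Over all genes tested, 0.742% were higher and 1.53% lower in this way. Counts were low for some, with 9, 2 and 15 in Sham for Ermap and 6, 8 and 9 for Gfi1b. At any fold, 19 had an unadjusted p under 0.05, 16 of them higher, where 4.91% of all genes tested were higher. The log2 fold change was positive for 50 of 66, where it was positive for 7341 of all 14426 genes tested. Its median was 0.28, and 0.21 without SNI-NP 1, where all genes tested had 0.006 and 0.012. DESeq2 called Car1 and Zfpm1 higher, with adjusted p of 0.0390 and 0.0452, as it did 0.409% of all genes tested.

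Of the 66 genes, 35 were highest in SNI-NP 1, where 20.4% of all genes tested were. For 7 of the 66, SNI-NP 1 was over 2-fold the second library (among them Hba-a2, Hbb-bs, Rhd, Gata1 and Car1). Along with the 4 members these belonged to the 27 genes of the whole table with that excess. All SNI-NP libraries lay above all Sham libraries for 17 of the 66 and below for 3, where 10.4% and 8.15% of all genes tested did so. SNI-NP 2 and 3 lay above all Sham libraries for 19, against 15.5% of all genes tested. In the lists below, a gene is counted as higher or lower where it differed over 2-fold with an unadjusted p under 0.05. Over all genes tested, 0.742% were higher and 1.53% lower by this rule.

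Among regulators, 14 were tested, 3 were counted as higher (Gata1, Gfi1b and Hemgn) and none as lower, and the median log2 fold change was 0.52. Gata1, the master factor of the lineage, had 12, 0 and 10.26 counts in Sham and 62.44, 22 and 30 counts in SNI-NP. Hemgn, a nuclear protein of blood precursors, was at 1.68, 2.42 and 3.55 CPM in Sham and 8.86, 3.39 and 7.65 CPM in SNI-NP. Tal1, a partner of Gata1 that endothelial cells also express, was at 5.13 to 7.16 CPM in Sham and 5.55 to 12.4 CPM in SNI-NP. Transcripts of these regulators, and not only of globin, were thus detected in the series, although Gata1 had 0 counts in Sham 2. Which cells they came from was not tested.

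The haem and iron list behaved in another way. None of its 15 tested genes was counted as higher or lower, yet 7 had an unadjusted p under 0.05, 6 of them higher. Over all genes tested, 4.91% were higher at that p. The median log2 fold change of the list was 0.21. Slc25a37 (mitoferrin, the mitochondrial iron importer of erythroid cells) came nearest to the members, at 3.84, 4.06 and 4.37 CPM in Sham and 9.95, 5.05 and 5.33 CPM in SNI-NP. Fech, the last enzyme of haem synthesis in all cells, was at 41.5 to 49.2 CPM in Sham and 52.3 to 68.5 CPM in SNI-NP. Tfrc, the transferrin receptor, went the opposite way, at 81.0 to 93.3 CPM in Sham and 63.0 to 73.7 CPM in SNI-NP.

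Among 17 membrane genes tested, 2 were counted as higher and 0 as lower, and the median log2 fold change was 0.15. Rhd, the Rh blood group protein that assembles with Rhag, was at 3.72, 2.93 and 4.02 CPM in Sham and 12.2, 5.66 and 5.74 CPM in SNI-NP, though its counts were not whole in any library. Sptb, the beta spectrin that neurons also express, was at 490.2 to 549.8 CPM in Sham and 491 to 688 CPM in SNI-NP. Other membrane genes went the opposite way in SNI-NP 1. Ank1 was at 68.3 CPM there and 87.3 to 133 CPM elsewhere, and Tmod1 at 23.1 CPM there and 48.0 to 83.2 CPM elsewhere. Dmtn, Add2 and Xk were also lowest in SNI-NP 1, while 7 of the 17 were highest in it. Of 15 genes of late red cells tested, 1 was counted as higher and 1 as lower, with a median of 0.09. In that list Car1 (carbonic anhydrase 1, abundant in red cells) was at 1.74, 0.563 and 2.62 CPM in Sham and 11.4, 3.61 and 5.68 CPM in SNI-NP.

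Relatives of the members that serve other cells were looked at beside them. None was over 2-fold the second library in SNI-NP 1, as few genes of the table were (0.187%), so nothing is read from that count. Of 12 listed, 10 were tested, and none was over 2-fold higher or lower at an unadjusted p under 0.05. In SNI-NP 1, 3 of the 10 were highest, as were 20.4% of all genes tested. Alas1, the form of the haem enzyme that all cells use, was at 27.4 to 38.5 CPM in Sham and 37.6 to 40.4 CPM in SNI-NP. Slc4a2, a widely expressed anion exchanger, was at 96.7 to 112 CPM in Sham and 108 to 132 CPM in SNI-NP. Cygb, the globin of fibroblast-like cells, was at 49.2 to 62.7 CPM in Sham and 50.3 to 63.8 CPM in SNI-NP. Other globin relatives were less even. Mb (myoglobin) was at 0 to 2.65 CPM in Sham and 0.111 to 18.0 CPM in SNI-NP, highest in SNI-NP 3. Ngb (neuroglobin) was at 8.09 to 19.1 CPM in Sham, highest in Sham 1, and 9.22 to 9.72 CPM in SNI-NP.

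By the RMS difference of the centred log2 profile over the 6 libraries, the erythroid list genes nearest to the mean of the members included Rhd at 0.194, Kel at 0.269 and Hba-a1 at 0.273. Outside the erythroid lists the nearest of all genes tested was Uhrf1, which keeps DNA methylation through replication, at 0.165. It was measured at 3.84, 3.94 and 5.65 CPM in Sham and 15.5, 5.94 and 7.13 CPM in SNI-NP. The next included Slc16a10 (0.199), Col22a1 (0.260), Mcpt8l2 (0.266), Pttg1 (0.270), Slc43a1 (0.288) and Pglyrp1 (0.292). The group held genes that are known from dividing cells (Uhrf1, Pttg1) and from granulocytes or mast cells (Pglyrp1, Mcpt8l2).

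Markers of other blood and marrow cells moved with the erythroid genes in part. The summed level of 18 granulocyte genes, all with counts, was 74.6, 109 and 226 CPM in Sham and 370.3, 179 and 273 CPM in SNI-NP, highest in SNI-NP 1. Of the 15 tested, 14 were highest in SNI-NP 1, where 20.4% of all genes tested were. At an unadjusted p under 0.05, 6 of the 15 were over 2-fold higher in SNI-NP, where 0.742% of all genes tested were. Their median log2 fold change was 1.09. Np4, a neutrophil defensin and the most abundant of them, was at 9.13, 10.9 and 25.1 CPM in Sham and 56.1, 17.8 and 40.6 CPM in SNI-NP. Sham 3 exceeded SNI-NP 2 in the granulocyte sum, as it did for the members Ahsp and Rhag. The reverse held for Hbb and the remaining members.

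The 12 genes of dividing cells summed to 101 CPM in SNI-NP 1 and 46.2 to 55.1 CPM in the other libraries. The 14 B cell genes summed to 60.3 CPM in SNI-NP 1 and 36.1 to 48.6 CPM elsewhere. Platelet genes, 11 listed, were highest in SNI-NP 3 at 18.9 CPM, then SNI-NP 1 at 13.9 CPM. Skeletal muscle genes followed another order, from 12.7 CPM in SNI-NP 2 and 15.7 CPM in Sham 1 to 211 CPM in SNI-NP 1 and 519 CPM in SNI-NP 3. The sums were 1282 to 1511 CPM for bone and cartilage genes, 896 to 1125 CPM for endothelial genes and 29115 to 40300 CPM for glial genes. Spp1 made up most of the bone sum and Mbp most of the glial sum, and single genes in them varied more, as Bglap of bone at 5.12 CPM in SNI-NP 1 and 0.338 to 2.67 CPM elsewhere. The part of these cell types in the erythroid values was not tested.

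**Figure D5:**
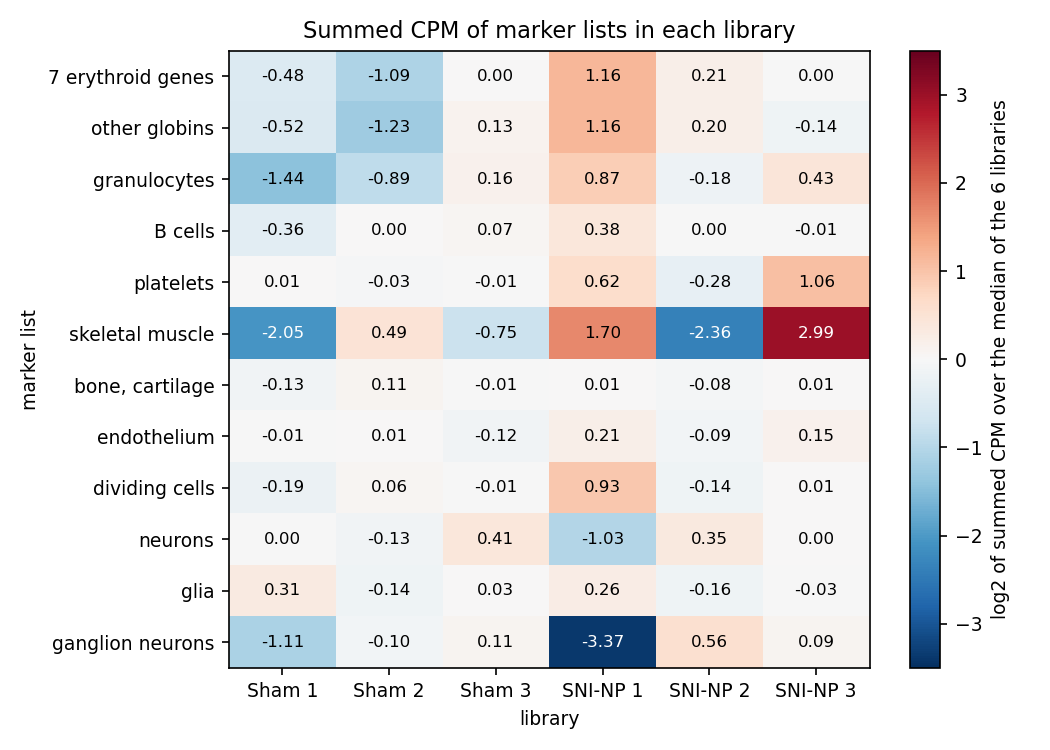
Summed CPM of each marker list in each library, as log2 of the ratio to the median of the 6 libraries, printed in each cell and shown by colour from blue (below the median) to red (above it). SNI-NP 1 has 1.16 for the 7 erythroid genes, whose sum is mostly Hbb, 0.87 for granulocytes and 0.93 for dividing cells, and -3.37 for ganglion neurons.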

How the data were processed

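Total RNA of spinal cord was extracted with TRIzol, made into libraries with the NEBNext Ultra kit and sequenced by the authors, who aligned them to a genome named Rat6 in their methods and kept unique sequences. FastQC, STAR and HTSeq are named in the submitters' processing notes. The table deposited by the authors holds estimated counts per gene, not all whole, and FPKM, scaled to gene length and library size, as they computed it. How counts that are not whole arose from unique sequences and HTSeq was not stated. The annotation release and the use of strand were not given in the sources used here.

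Counts were rounded for the tests. Genes were filtered with filterByExpr, scaled by TMM and tested with the edgeR 4.0.16 quasi-likelihood test (R 4.3.3) over all 14426 genes with Benjamini-Hochberg adjustment. DESeq2 1.42.0 was an alternative, as the authors used it. A gene stood out in 1 library when its CPM there was over 2-fold the second highest or the median, with at least 10 counts. Totals were 16670760 to 18151156 counts, and after TMM scaling 3 counts were worth 0.167 to 0.18 CPM. Replicates of a group differed by more than sampling noise in every pair. The fit was tested on simulated counts.

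The 7 genes and all gene lists were chosen with earlier results of these data known. Named are the members, their relatives, up to 5 abundant or uneven genes a list, the most abundant markers and the 8 nearest profiles. Some genes that this rule names are not reported here. Genes named because they made up a count were picked after their values were seen. Promoter windows came from RefSeq (GRCr8), which is not the build of the counts.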

Additional observations from a re-analysis of the deposited data

How the results depend on the processing

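All 90 fold change values of the 7 genes under the alternatives were positive, and 1 had an adjusted p under 0.05. That was Slc4a1 with DESeq2, at a log2 fold change of 1.83, so DESeq2 called 1 of the 7 genes, 2 of the other erythroid genes and 210 genes over the table, where edgeR called none. Leaving out 1 library at a time, the number of the 7 genes over 2-fold at an unadjusted p under 0.05 was 1 to 6, against 4 with all libraries, with 1 left without SNI-NP 1, without Sham 1 and without Sham 2. For the other erythroid genes it was 4 to 13, against 8, with 4 without SNI-NP 1, 5 without Sham 1, 5 without Sham 2 and 13 without Sham 3, and it was 5 where every library had to hold at least 10 counts, a filter that Rhag did not pass. Over the table, 0 to 222 genes passed the adjusted threshold of edgeR and 258 to 804 were over 2-fold at an unadjusted p under 0.05, the upper values being those without SNI-NP 1, and 2 passed without Sham 2. The median log2 fold change of the 7 genes was 0.66 to 1.40 without 1 library. With the replicate block the median was 1.08, 4 of the 7 genes were over 2-fold and none passed the adjusted threshold. The labels give no shared animal, litter or day for a number, and the deviations of same-numbered libraries correlated at 0.214, -0.143 and 0.0538, so the numbers were not taken as pairs. With 3 libraries a group, and 28 to 130 counts for Klf1 and 8 to 93 for Rhag, depth limits what can be said of these genes.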
